A study of Homo sapiens with 2 samples.

Results

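The genes described here are 38 genes of glycolysis and of the response to low oxygen, taken from a list of names. All probe sets whose annotated gene symbol was one of these names were taken, which gave 92 of the 54675 probe sets of the array and 37 of the 38 genes. For CA9 the annotation listed none, and it was not analysed here. Of the 37 genes, 36 were kept by a filter on dim signals, and they stand among 12375 genes kept in all. The remaining gene, ALDOC, was not kept.

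RNA came from A549 cells, which were derived from a human lung carcinoma, in 2 groups. In one group the cells received 1 ng/ml TGF-β, a cytokine that drives matrix production and the loss of epithelial character, for 12 h. In the other, the control, they received none. The labels name no other agent, no genetic change and no low oxygen treatment, and both groups are the same single line. Each group was measured on 1 Affymetrix array, so no difference below has a replicate check, and no test, standard error or p-value could be given. A gene is therefore called higher or lower by size alone, at 2-fold or more, and a smaller size of 1.5-fold is given beside it. In total RNA from a culture, fewer cells carrying a transcript and less of it per cell cannot be told apart.

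Glycolysis splits glucose into pyruvate through a chain of enzymes in the cytosol, and lactate dehydrogenase turns pyruvate into lactate. When oxygen is scarce, the α subunits of the hypoxia-inducible factors (HIF) are no longer hydroxylated by the EGLN enzymes and marked for destruction by VHL, and they then join ARNT at DNA elements with a core of ACGTG or GCGTG, near most glycolytic genes and near genes for blood vessel growth, pH control and mitochondrial turnover. The α subunits are controlled mainly through the stability of the protein, so an array of mRNA does not report their activity. TGF-β is also known to act on some of these genes, VEGFA among them, in cells with normal oxygen.

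The values are MAS5 signals, which are linear intensities scaled by the authors to a trimmed mean of 500 on each array. A signal at or under the highest of 27 bacterial control probe sets, 56.6 on the TGF-β array and 45.8 on the control array, was taken as background, and a fold with one such signal is given as a lower bound. A gene stands for its brightest kept probe set. An array has no read depth, and precision is limited by there being 1 array per group. The treatment label was checked on genes that TGF-β is known to induce: 6 of 7 measured genes were at least 2-fold higher with TGF-β, with a median log2 fold change of 1.44. Epithelial markers were all 5 above the filter, among them KRT18 with 38248 on the TGF-β array and 33810 on the control array, and CDH1, which encodes E-cadherin, with 846 and 1952. None of 5 fibroblast markers, 1 of 4 endothelial markers and 2 of the 3 immune markers with a probe set passed the filter. The 2 immune markers were CD14, with 63.0 on the TGF-β array and 190.5 on the control array, and CD3E, with 74.8 and 48.8.

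PFKFB4 and VEGFA were at least 2-fold higher with TGF-β, that is 2 of 36, where 3.94% of all kept genes were. HK2 was the 1 gene at least 2-fold lower, where 2.96% of all kept genes were. At 1.5-fold, BNIP3L, NDRG1, ANKRD37 and KDM3A joined the higher genes, 6 of 36 against 9.16% of all kept genes, and MXI1 joined the lower ones, 2 of 36 against 9.08%. The other 28 genes (77.8%) lay within 1.5-fold, where 81.8% of all kept genes did. The median log2 fold change of the 36 was 0.08, and that of all kept genes was -0.03. Under quantile normalization the median of the 36 was -0.01, so its sign depends on the scaling.

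**Figure D1:**
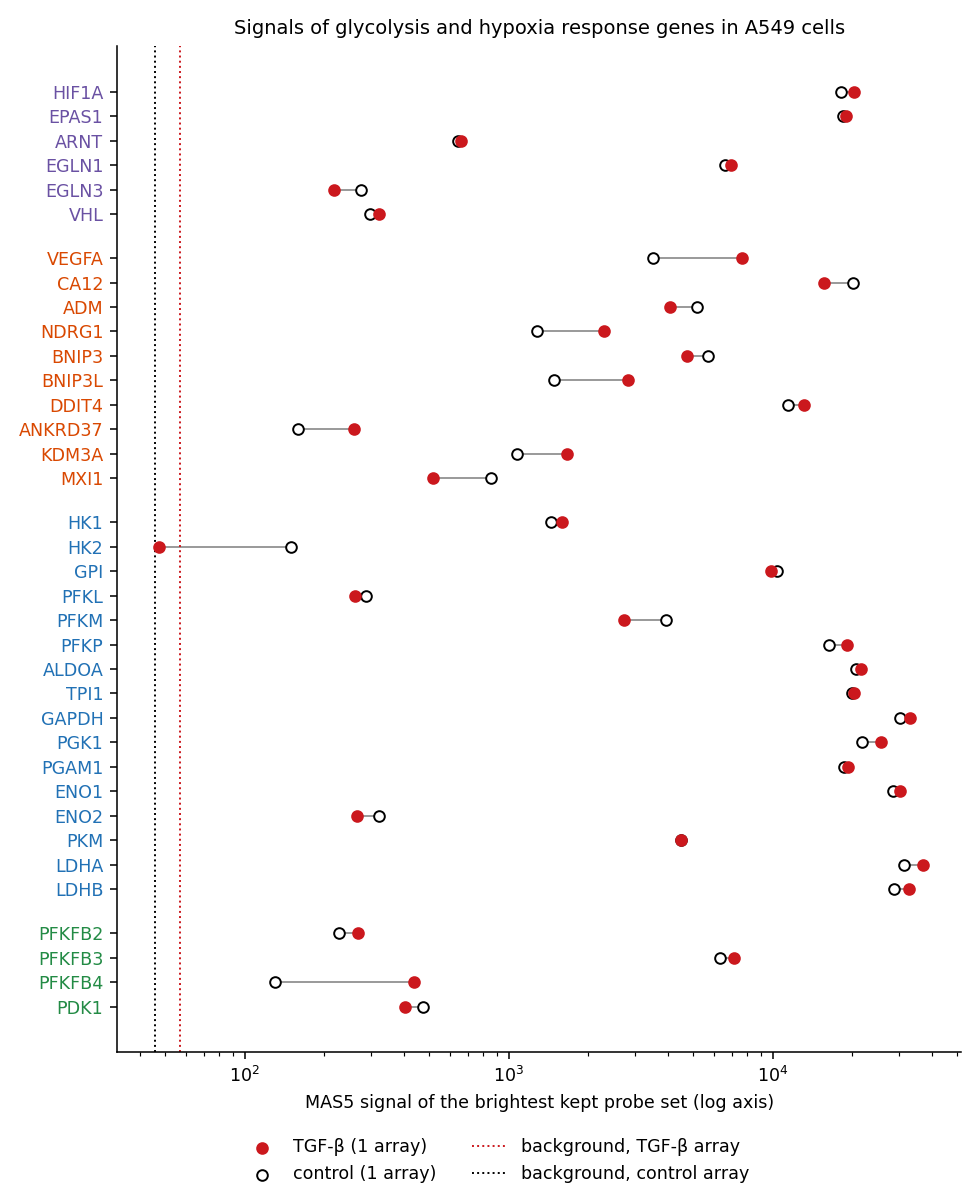
MAS5 signal (log axis) of the brightest kept probe set of each of the 36 genes on the TGF-β array (filled red) and the control array (open black), 1 array each, with dotted lines at each array's background level and names coloured by role. PFKFB4 and VEGFA show the widest gaps to the right, HK2 the widest to the left with its TGF-β signal of 47.2 under the background of 56.6, and most glycolytic enzymes show almost none; signals of different genes come from different probes and are not compared.

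Because dim probe sets scatter more than bright ones, each fold change was also set against the 500 kept probe sets nearest in signal. Their spread, a scaled median absolute deviation of their log2 ratios, ran between 0.10 and 0.53 over the 36 genes. It is a spread over probe sets of these arrays and not over replicates. By this rule, added after the values were seen, VEGFA, NDRG1, BNIP3L, PFKFB4 and KDM3A lay more than 2 spreads above the median of their neighbours, 5 of 36 where 7.01% of all kept genes did. CA12, HK2, PFKM and MXI1 lay more than 2 spreads below it, 4 of 36 where 4.19% of all kept genes did. HK2 is counted there by the ratio of its signals as deposited, of which the TGF-β one is at background, and without it 3 genes are left. ANKRD37, with a spread of 0.38, did not pass.

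**Figure D2:**
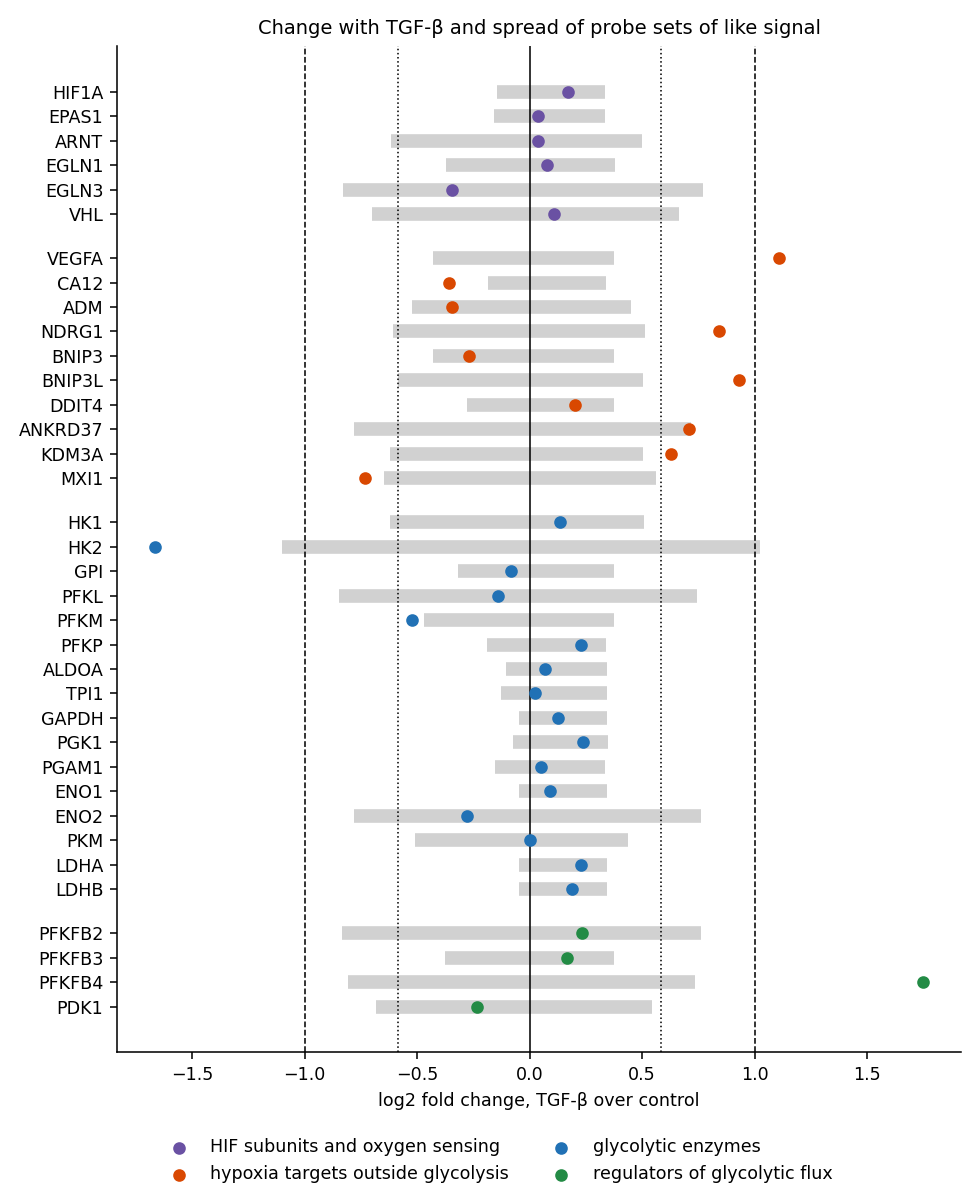
Log2 fold change of TGF-β over control for each of the 36 genes (points, coloured by role), with a grey bar that spans 2 spreads on each side of the median of the 500 probe sets nearest in signal, dashed lines at 2-fold and dotted lines at 1.5-fold. PFKFB4 at 1.75, VEGFA at 1.11 and HK2 at -1.66 lie beyond 2-fold; the point of HK2 is the ratio of the signals as deposited, and its TGF-β signal is at background.

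Sequences before the gene starts are shown for members that were higher, lower and nearly equal with TGF-β, because the ACGTG core that HIF binds is what these genes are often grouped by. The window was the 250 bases before each start of transcription in RefSeq on GRCh38.p14, each sequence is read 5′ to 3′ on the strand of its gene, and capitals mark ACGTG or its reverse complement CACGT on either strand, with overlapping matches merged into 1 site. The last sequence has no ACGTG, and its capitals mark GCGTG instead.
ANKRD37, plus strand, chr4:185396664-185396717: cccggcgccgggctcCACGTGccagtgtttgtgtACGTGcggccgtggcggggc
HK2, plus strand, chr2:74834064-74834098: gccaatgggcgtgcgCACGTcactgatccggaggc
BNIP3, minus strand, chr10:131982037-131982072: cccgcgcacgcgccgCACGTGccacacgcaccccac
GAPDH, plus strand, chr12:6535168-6535203: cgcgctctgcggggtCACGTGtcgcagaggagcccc
PGK1, plus strand, chrX:78104031-78104084: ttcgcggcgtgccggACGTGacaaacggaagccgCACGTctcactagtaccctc
LDHA, plus strand, chr11:18394475-18394509: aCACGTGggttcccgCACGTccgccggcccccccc
PFKFB4, minus strand, chr3:48556950-48556984: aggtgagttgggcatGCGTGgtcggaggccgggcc

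The ACGTG core was found before at least 1 start of 19 of the 33 members with a RefSeq entry (57.6%), against 5935 of 27305 genes overall (21.7%). Counted by starts, it was found before 22 of 59 starts of members (37.3%) and 6501 of 35116 starts overall (18.5%). By role, it was found in 11 of 17 glycolytic enzymes, 5 of 8 hypoxia targets outside glycolysis, 2 of 3 regulators and 1 of 5 genes of oxygen sensing. The GCGTG core, searched in the same way, was found in 57.6% of members and 36.2% of all genes. Counted by starts, the gap for GCGTG was small, with 22 of 59 starts of members (37.3%) and 11313 of 35116 starts of all genes (32.2%). VEGFA, BNIP3L, VHL, NDRG1 and PFKFB2 had no entry.

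Genes with the core were found among those higher, lower and nearly equal with TGF-β. ANKRD37, 1.63-fold higher, holds 2 sites, 156 and 138 bases before its start, and HK2, lower with TGF-β, holds 2 sites before each of its 2 starts. GAPDH, PGK1 and LDHA, all within 1.5-fold, hold 1, 2 and 3 sites. PFKFB4, with the largest fold of the 36 genes, holds no ACGTG in this window and has the GCGTG shown 161 bases before its start, and KDM3A holds no ACGTG before either start. A match of letters describes the sequence and is not a measured binding site.

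The genes of the oxygen-sensing machinery itself were nearly equal on both arrays, with a median log2 fold change of 0.06 over 6 genes and none past 1.5-fold. HIF1A, the α subunit present in most cells, had 20325 on the TGF-β array and 18068 on the control array, a log2 fold change of 0.17. EPAS1, which encodes the second α subunit, HIF-2α, prominent in lung and endothelium, had 18932 and 18470, a log2 fold change of 0.04. Both transcripts were thus far above background with and without TGF-β, and neither ratio left 2 spreads of its neighbours. ARNT, the β subunit that both share, had 658 and 641. Its 4 probe sets above background ran between 0.04 and 0.98, and the highest of these was its dimmest, with 96.9 on the TGF-β array and 49.2 on the control array.

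Among the enzymes that turn the α subunits over, EGLN1, the prolyl hydroxylase that acts in normal oxygen, had 6942 with TGF-β and 6583 without. VHL, which recognizes the hydroxylated subunits, had 321 and 298. EGLN3, a hydroxylase that is itself a HIF target in many cells, had 217 and 275 on the TGF-β and control arrays, a log2 fold change of -0.34, and a second probe set of it had 229 and 194, a log2 fold change of 0.24. The direction for EGLN3 is therefore not settled by these probe sets.

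Hypoxia targets outside glycolysis had the highest median of the 4 roles, with genes on both sides of 0. Of 10 kept genes, 5 were at least 1.5-fold higher with TGF-β, where 9.16% of all kept genes were. On the lower side 1 passed 1.5-fold, where 9.08% of all kept genes did. The median log2 fold change was 0.42. VEGFA, the growth factor that draws blood vessels into tissue, had 7619 on the TGF-β array and 3533 on the control array, a fold of 2.16. Its other probe sets gave 1242 and 611, 371 and 220, and 133 and 107, with log2 fold changes of 1.02, 0.76 and 0.31. All 4 were higher with TGF-β. The names of all 4 carry a suffix for probes that may match more than 1 transcript. The VEGFA isoforms cannot be told apart, and some probes may also match other genes.

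BNIP3L and BNIP3 encode closely related receptors on the outer mitochondrial membrane that mark mitochondria for autophagy, and they went opposite ways. BNIP3L had 2818 on the TGF-β array and 1477 on the control array, a fold of 1.91, and its second probe set had 1520 and 905, a log2 fold change of 0.75. BNIP3 had 4735 and 5709, a log2 fold change of -0.27, and its second probe set had 1626 and 2339, a log2 fold change of -0.52. Both probe sets of BNIP3L were higher with TGF-β and both of BNIP3 lower, although only BNIP3L passed 1.5-fold with its brightest probe set.

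NDRG1, a stress-responsive gene linked to differentiation and to suppression of metastasis, had 2303 with TGF-β and 1283 without, a log2 fold change of 0.84. KDM3A, a histone H3 lysine demethylase, had 1660 and 1073, a log2 fold change of 0.63. ANKRD37, a small ankyrin-repeat protein, had 259 and 159, a log2 fold change of 0.71. NDRG1 and KDM3A were read by 1 probe set above background each, with a shared-target name, and ANKRD37 by 1.

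On the lower side, MXI1, a partner of MAX that opposes MYC, had 515 on the TGF-β array and 855 on the control array, a log2 fold change of -0.73. CA12, a carbonic anhydrase of the cell surface that helps to control pH, had 15676 and 20094, a fold of 1.28 lower. That is under 1.5-fold, yet all 6 CA12 probe sets above background were lower with TGF-β, with log2 fold changes between -0.84 and -0.34, and a seventh had 16.6 at background with TGF-β and 118 without. ADM, the vasodilator peptide adrenomedullin, had 4076 and 5182, a log2 fold change of -0.35. DDIT4, an inhibitor of mTORC1 signalling, had 13130 and 11401, a log2 fold change of 0.20. ADM and DDIT4 passed neither 1.5-fold nor 2 spreads.

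**Figure D3:**
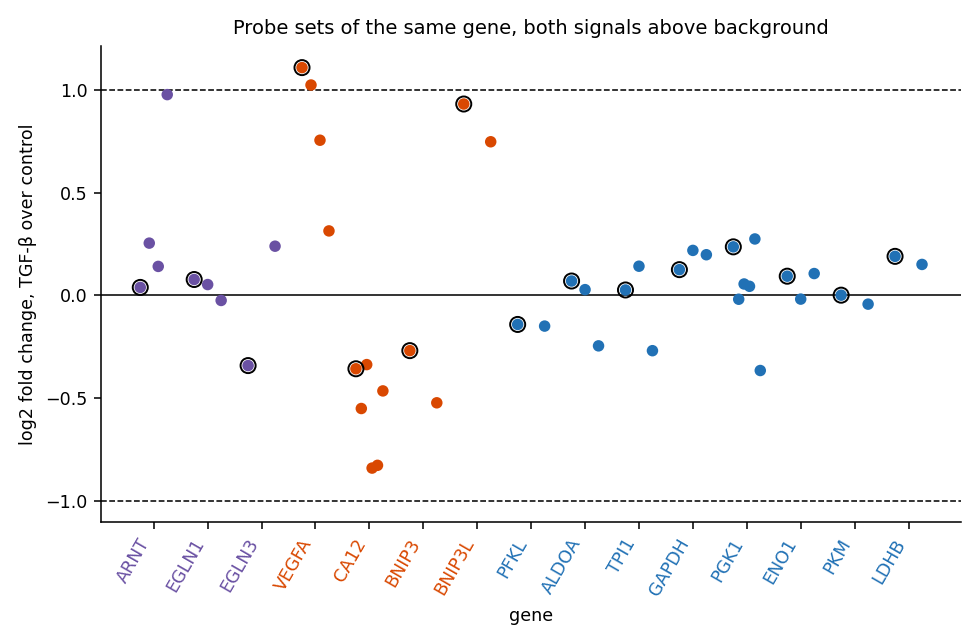
Log2 fold change of TGF-β over control for each probe set with both signals above background (control probe sets of GAPDH left out), for the 15 genes with more than 1 such probe set; a ring marks the brightest, colours give the role as in the plot of fold changes, and dashed lines mark 2-fold. All points of VEGFA and BNIP3L lie above 0 and all points of CA12 and BNIP3 below it, while EGLN3, ALDOA, TPI1, PGK1 and others straddle 0.

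Over these 15 genes, the probe sets of 8 all pointed in one direction, and in 0 genes did they differ by more than 1 on the log2 scale. Probe sets of a gene share the RNA and the array and are no replicates.

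Of the 16 kept enzymes of glycolysis, 15 lay within 1.5-fold, where 81.8% of all kept genes did, none was 1.5-fold higher, and the median log2 fold change was 0.06. HK2, the inducible hexokinase that starts glycolysis in many tumors and in muscle, was the exception, with 47.2 on the TGF-β array, at background, and 149.6 on the control array, at least 2.64-fold lower. It passed the filter through its control signal alone. A second probe set of HK2 had 11.0 with TGF-β and 57.7 without, and its remaining probe set was at background on both arrays. HK1, the hexokinase found in most tissues, had 1590 and 1446, a log2 fold change of 0.14. Most of the 16 enzymes are bright, and bright genes of any kind seldom passed 1.5-fold. Of 5057 kept genes with a mean signal of 1000 or more, 5.28% were at least 1.5-fold higher and 2.91% at least 1.5-fold lower.

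The next enzymes convert glucose 6-phosphate into triose phosphates. GPI, the isomerase, had 9827 with TGF-β and 10395 without. The phosphofructokinases, which catalyse the committed step, differed among isoforms. PFKM, named for muscle, had 2744 and 3941 on the TGF-β and control arrays, a log2 fold change of -0.52 that lay more than 2 spreads under its neighbours. PFKP, named for platelets, had 19166 and 16357, a log2 fold change of 0.23. PFKL, named for liver, had 261 and 288, a log2 fold change of -0.14. PFKM and PFKP are each read by 1 probe set with both signals above background. A second probe set of PFKP, too dim for the filter, had 25.7 at background with TGF-β and 47.7 without, at least 1.19-fold lower. The opposite signs of PFKM and PFKP therefore rest on 1 probe set each.

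ALDOA, the aldolase of most tissues, had 21600 with TGF-β and 20588 without, and TPI1, triose phosphate isomerase, had 20346 and 19988. ALDOC, the aldolase of brain, had 16.1 at background with TGF-β and 55.2 without, and it was left out of the counts. The log2 fold changes were 0.07 for ALDOA and 0.03 for TPI1, with other probe sets of both on either side of 0.

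In the payoff steps, where ATP is made, GAPDH had 33215 on the TGF-β array and 30467 on the control array, a log2 fold change of 0.12. PGK1, phosphoglycerate kinase, had 25663 and 21796, a log2 fold change of 0.24, and its 6 probe sets ran between -0.37 and 0.27. PGAM1, phosphoglycerate mutase, had 19324 and 18672. ENO1, the enolase of most tissues, had 30364 and 28474, while ENO2, the enolase of neurons, had 266 and 322, a log2 fold change of -0.28. PKM, pyruvate kinase, had 4486 and 4485, a log2 fold change of 0.00. None of these genes left 2 spreads of its neighbours.

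LDHA, the lactate dehydrogenase subunit that HIF induces, had 37008 with TGF-β and 31542 without, a log2 fold change of 0.23, and LDHB, the heart-type subunit, had 32753 and 28725, a log2 fold change of 0.19. The log2 fold changes of GAPDH, PGK1, LDHA and LDHB were small and positive as deposited, but under quantile normalization that of GAPDH was -0.07 and that of LDHB -0.01. At that brightness the array as a whole was shifted the same way. The 500 probe sets nearest to LDHA in signal had a median log2 fold change of 0.15, and 18 spike-in probe sets, whose RNA is added and not made by the cells, had a median of 0.14. Measured from the median of their neighbours, the 16 enzymes had a median deviation of -0.05.

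The regulators of glycolytic flux held the largest fold of the 36 genes. PFKFB enzymes set the level of fructose 2,6-bisphosphate, the strongest activator of phosphofructokinase. PFKFB4 had 438 on the TGF-β array and 130 on the control array, a fold of 3.36, or 1.75 on the log2 scale with a spread of 0.38 among its neighbours. A second PFKFB4 probe set was at background on both arrays, with 12.4 and 13.7, so the difference rests on 1 probe set. PFKFB3, an isoform in which the kinase far outweighs the phosphatase, had 7114 and 6339, and PFKFB2, the isoform of heart, had 268 and 228, with log2 fold changes of 0.17 and 0.23. Dimmer PFKFB2 probe sets, at background with TGF-β, had 12.7 with TGF-β and 73.3 without, and 49.8 and 52.3. The remaining one was at background on both arrays. The fold of PFKFB4 was thus not shared by PFKFB3 or PFKFB2. PFKFB1 was at background on both arrays, with 54.0 and 37.2, and cannot be compared. PDK1, a kinase that inhibits pyruvate dehydrogenase in low oxygen, had 404 and 475, a log2 fold change of -0.24.

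**Figure D4:**
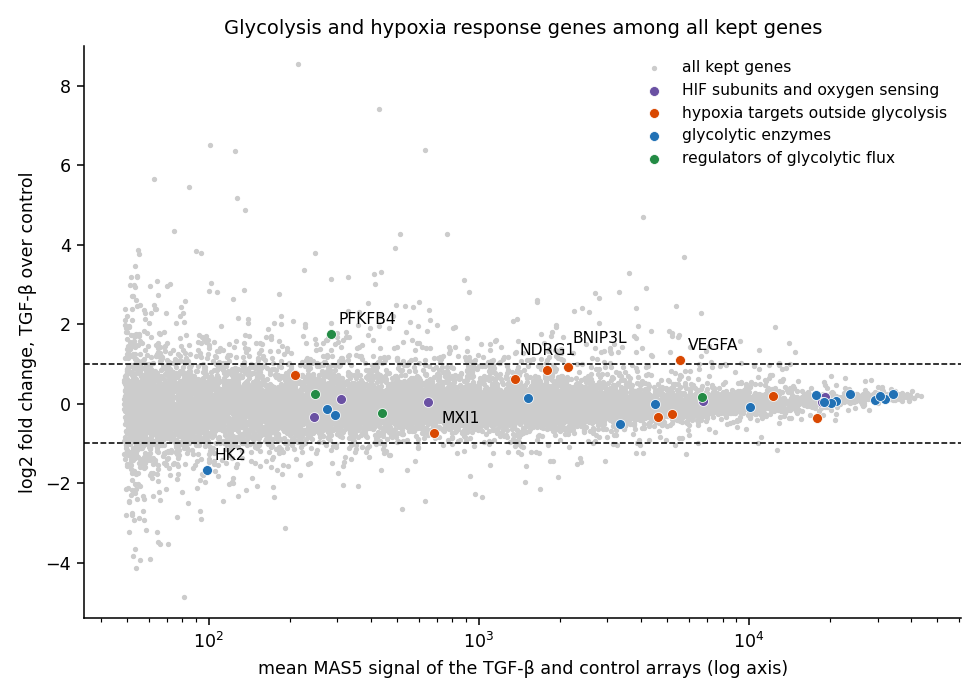
Log2 fold change of TGF-β over control against the mean MAS5 signal of both arrays (log axis) for all 12375 kept genes (grey) and the 36 genes (coloured by role), with dashed lines at 2-fold and names at 6 genes. Most glycolytic enzymes lie at the bright end, where the cloud is narrow, and PFKFB4 and HK2 lie among dim genes, where it is wide.

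The set is brighter than the array as a whole, with 25 of 36 genes at a mean signal of 1000 or more. Among these 25 genes, 1 was at least 2-fold higher with TGF-β and 0 at least 2-fold lower, against 2.14% and 0.672% of 5057 genes of that brightness. At 1.5-fold, 4 of the 25 (16%) were higher and 0 lower, against 5.28% and 2.91%. The 4 were VEGFA, BNIP3L, NDRG1 and KDM3A, all hypoxia targets outside glycolysis. This cutoff was chosen after the values were seen.

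Other known hypoxia targets, outside the 38, showed larger differences than any of the 36 kept genes in single cases. Of 30 kept genes of that list, 3 were at least 2-fold higher with TGF-β and 0 at least 2-fold lower, against 3.94% and 2.96% of all kept genes. At 1.5-fold, 8 were higher and 1 lower, against 9.16% and 9.08%. The median log2 fold change of the list was 0.12. ANGPTL4, a secreted inhibitor of lipoprotein lipase that is also a known TGF-β target, had 7797 on the TGF-β array and 303 on the control array, a fold of 25.7. BHLHE40, a circadian and hypoxia-responsive repressor, had 5776 and 1760, a fold of 3.28. LOX, which crosslinks collagen, had 168 with TGF-β and 11.8, at background, without, and was at least 3.66-fold higher. It passed the filter through its TGF-β signal alone, a second probe set was at least 1.38-fold higher, and the remaining one was at background on both arrays. P4HA2, a collagen prolyl hydroxylase, and EDN1, the vasoconstrictor endothelin, were among the 5 others between 1.5-fold and 2-fold higher. P4HA2 had 3070 and 1549, and EDN1 had 4043 and 2118. Both are also known to respond to TGF-β. A second P4HA2 probe set had 521 and 203, a fold of 2.57. Other EDN1 probe sets had 3858 and 1656, a fold of 2.33, and 230 and 166, a fold of 1.39. The count at 2-fold in this list therefore depends on the probe set chosen. STC2, a secreted glycoprotein, had 489 and 891 and was the 1 gene at least 1.5-fold lower.

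The glucose transporters, which feed glycolysis, belong to the same list. SLC2A1, encoding GLUT1, had 2334 with TGF-β and 1671 without, a fold of 1.40. SLC2A3, encoding GLUT3, had 506 and 315, a fold of 1.61, but its other 2 probe sets had log2 fold changes of 0.21 and 0.25. Both transporters were higher with TGF-β in every probe set above background, and all of these lay under 2-fold.

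Of 12 kept genes of the HIF pathway outside the 38, 0 were 2-fold higher and 1 was 2-fold lower, against 3.94% and 2.96% of all kept genes. The median log2 fold change of the 12 was -0.03. The lower gene, CITED2, encodes a protein that competes with HIF α subunits for the coactivators EP300 and CREBBP. It had 99.5 on the TGF-β array and 293 on the control array, a fold of 2.95, and a second probe set was at least 1.94-fold lower. Of 10 kept genes for other glycolytic and gluconeogenic enzymes, none passed 2-fold. The largest of these differences was that of LDHC, the lactate dehydrogenase of testis, with 61.2 on the TGF-β array and 121 on the control array.

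**Figure D5:**
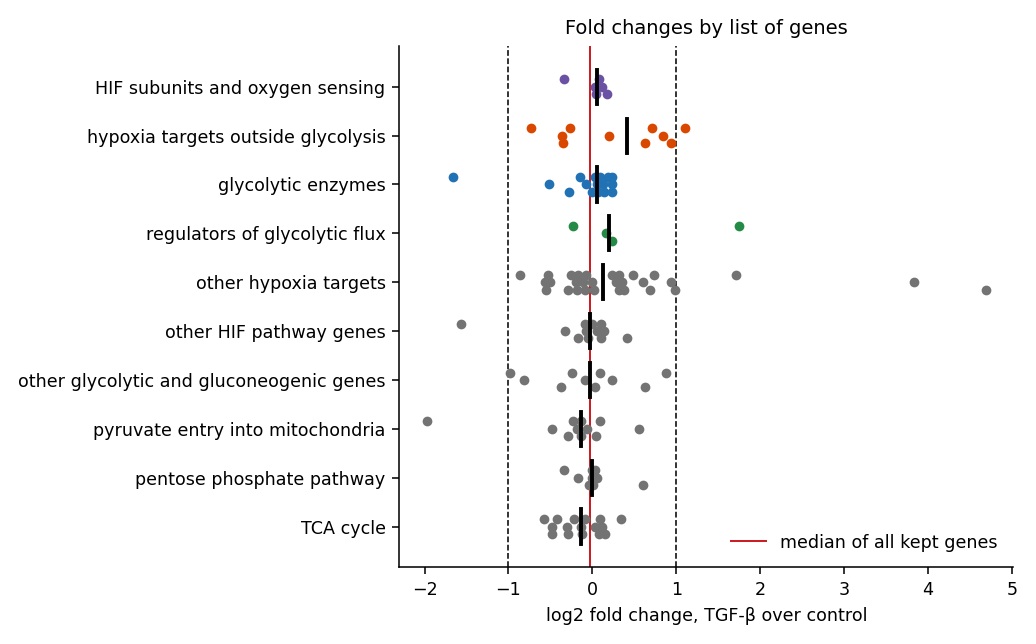
Log2 fold change of TGF-β over control for each kept gene of the 4 role groups (coloured) and of 6 related lists (grey), with a black tick at the median of each list, a red line at the median of all kept genes (-0.03) and dashed lines at 2-fold. Hypoxia targets outside glycolysis have the rightmost median, 0.42, and the glycolytic enzymes, the pentose phosphate pathway and the TCA cycle have medians near 0, with HK2 far to the left of the other enzymes.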

How the data were processed

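RNA of A549 cells with and without TGF-β was hybridized to 1 Affymetrix array each, after extraction with a column kit and biotin labelling. The intensities deposited by the authors are linear MAS5 signals, 1 per probe set; a version is not given in the sources used here. On both arrays the mean without the highest and lowest 2% was 500, and the median signal was 49.3 with TGF-β and 51.0 in the control.

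Symbols came from the platform annotation, updated through RefSeq gene identifiers of GRCh38.p14. Leaving out controls, 41091 of 54613 probe sets carried 1 symbol, 1801 several, and 11721 were unlisted. Probe sets were kept when the mean of both signals reached the median over probe sets, 48.7. Ratios and log2 values were computed from the deposited intensities in Python 3.11.15 (pandas 2.3.3, numpy 2.4.6; loess from statsmodels 0.14.6; figures from matplotlib 3.10.9), and calls by size were tested on simulated data. Promoter sequences are from RefSeq.

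The 38 genes, the lists and the rules were chosen with earlier results of these data known. Named are every member and, from other lists, genes at 2-fold or the largest change; list genes under 2-fold and the glucose transporters were chosen after their values were seen. Alternatives were no filter, a filter at the 75 percentile, floors at background and at the array median, 50 added to each signal, normalization by loess (span 0.3), by quantiles or to equal medians, other choices among probe sets, and leaving out probe sets with shared targets. The signal cutoff of 1000 and the rule of 2 spreads were added later.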

Additional observations from a re-analysis of the deposited data

How the results depend on the processing

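The counts of genes at 2-fold rest on few genes. PFKFB4 and VEGFA were the 2 genes at least 2-fold higher with TGF-β, and 1 was counted with a filter at the 75 percentile, with the median over probe sets, without shared-target probe sets and at a mean signal of 1000 or more. HK2 was the 1 gene at least 2-fold lower; 2 were counted without a filter or when the most changed probe set stood for each gene, and 0 under the 75 percentile filter or at a mean signal of 1000 or more. Of the 6 genes at least 1.5-fold higher, 3 were counted without shared-target probe sets, which left 20 genes. Of the 2 at least 1.5-fold lower, 1 was counted with the filter at the 75 percentile and 0 at a mean signal of 1000 or more. Over all genes, 487 were at least 2-fold higher, against 2110 without a filter, 197 with the filter at the 75 percentile, 295 with an offset of 50 and 108 at a mean signal of 1000 or more. For 366 genes at least 2-fold lower, these counts were 2395, 63, 134 and 34, with 204 when signals were floored at background and 596 when the most changed probe set was used. Of 397 values of single genes under the alternatives, 372 moved by less than the spread, 25 moved by more and 0 of the called genes turned sign, and 27 of 36 genes had one sign throughout. ALDOA, ENO1, EPAS1, GAPDH, LDHB, PGAM1, PGK1, PKM and TPI1 did not. The log2 fold change ran between 1.44 and 1.80 for PFKFB4, 0.89 and 1.16 for VEGFA, and -1.66 and -1.04 for HK2. No paired analysis was possible because each group has 1 array. Signal over background limits HK2 and ALDOC, and the lack of replicates limits every value.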

Other observations

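The routes that glycolysis feeds were also measured. Of 11 kept genes for pyruvate carriers, pyruvate dehydrogenase and its regulators, 8 had lower signals with TGF-β, where 54.6% of all kept genes did. This list mixes genes that promote the use of pyruvate in mitochondria with kinases that block it, so the count gives no direction for that step. The median log2 fold change of the 11 was -0.14. Among them 1 gene was at least 2-fold lower, where 2.96% of all kept genes were. That gene was PDK4, a kinase that shuts off pyruvate dehydrogenase in fasting, with 601 on the TGF-β array and 2356 on the control array, a fold of 3.92 lower. Its other 2 probe sets were at background with TGF-β and were at least 1.38-fold and 1.20-fold lower. PDK1, of the same family, had 404 and 475, a log2 fold change of -0.24. Of 16 kept genes of the TCA cycle, 10 had lower signals with TGF-β, against the same 54.6% of all kept genes, none passed 1.5-fold, and the log2 fold changes ran between -0.57 and 0.34 with a median of -0.13. Of 9 kept genes of the pentose phosphate pathway, 1 passed 1.5-fold, on the higher side, where 9.16% of all kept genes did. That was H6PD, the hexose-6-phosphate dehydrogenase of the endoplasmic reticulum, with 122 on the TGF-β array and 80.4 on the control array.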
